A study of Mus musculus with 3 samples.

Results

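The activator protein 1 (AP-1) genes Fos, Fosb, Fosl1, Fosl2, Jun, Junb and Jund and their relatives Atf3 and Batf were followed in the RNA of apoptotic bodies (ABs), the membrane-bound fragments shed by dying cells. The genes were picked with earlier results of these data known, and their rows were found by gene symbol: every transcript of the mRNA table whose GENCODE M21 symbol was one of these 9 names was taken, and reads were summed per gene. Of the 9 genes, 8 had rows in the table, with 18 transcripts, among 15861 genes in all. All 8 held at least 20 reads over the 3 libraries, a limit that 12713 genes met. Batf, a partner of Jun proteins in lymphocytes and myeloid cells, had no row and was not analysed here.

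The study sequenced RNA from ABs of 3 stages of osteoclast differentiation, with 1 library per stage and no replicates. BMM-ABs came from bone marrow macrophages grown for 72 h in M-CSF at 50 ng/ml. pOC-ABs came from preosteoclasts, made from such macrophages with 24 h of RANKL at 100 ng/ml and M-CSF at 30 ng/ml, and mOC-ABs from mature osteoclasts, for which RANKL and M-CSF at these doses were given for 72 h or longer. All cells were from bone marrow of C57BL/6 mice aged 11 weeks, male in the paper, with no genetic change named and the number of mice per library not stated, and in the labels all received alendronate, a bisphosphonate drug, at 500 μM for 12 h to make them shed ABs. The paper names another inducer, staurosporine, a shorter time in M-CSF for the macrophages, a longer time in RANKL for mOCs and another M-CSF dose. The sample titles name cells and the description of the series names ABs, and the libraries were taken here as ABs. No control without an inducer was analysed here, so that levels in living cells cannot be told apart from levels set by the inducer.

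AP-1 is a family of transcription factors that bind DNA as pairs through a basic leucine zipper (bZIP). Jun proteins pair with each other or with Fos proteins, whereas Fos proteins need a Jun partner. Several of these genes are immediate early genes, transcribed within minutes of a growth, cytokine or stress signal through MAP kinases, and their mRNAs are short-lived. In the osteoclast lineage Fos is required: mice without Fos make no osteoclasts, and AP-1 acts with NFATc1 on genes such as Acp5 and Ctsk downstream of RANKL.

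The reads of the mRNA table summed to between 7387317 and 9100082 per library, and levels are given as RPM, the reads of a gene per 1000000 of these reads, or, for comparing one gene with another, as FPKM, which also divides by transcript length. Where a value is given for each library without its name, the values are in the order of the stages, from BMM-ABs through pOC-ABs to mOC-ABs. The 7 macrophage markers listed of 10 summed to 5236 RPM, 2482 RPM and 1618 RPM. Most of this sum in BMM-ABs and pOC-ABs was Lyz2, and the other 6 summed to 2066 RPM, 1148 RPM and 1206 RPM. Their sum was thus not lower in mOC-ABs than in pOC-ABs, but the genes differed. For mOC-ABs to pOC-ABs the log2 ratio was 0.50 for Csf1r and 0.02 for Cd68, which held most of these reads. It was -1.44 for Adgre1, -1.87 for Itgam and -1.68 for Fcgr1, and Mertk had 0, 2 and 5 reads. The 9 osteoclast markers listed of 10 summed to 345 RPM, 581 RPM and 1870 RPM, with Calcr not listed and Itgb3 at 6, 3 and 0 reads. None of 8 neutrophil and none of 6 erythroid markers was listed, and the markers of the 6 other cell types examined summed to at most 47 reads in any library. The part of these differences in macrophage and osteoclast markers in the differences given for the members was not tested. In bulk RNA, fewer bodies from a cell type and less of an mRNA per body cannot be told apart.

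The promoters of Fos, Jun, Atf3 and Fosb, the 4 members that were lower in mOC-ABs than in BMM-ABs by more than 2-fold (as were 9.01% of all genes with 20 reads), are shown to let their DNA be compared. Each is the sequence of the 250 bases before the RefSeq start in GRCm38.p6, read 5′ to 3′ along the strand of the gene, and the capitals mark motifs that were chosen after the sequences were seen. The windows lie at chr12:85473640-85473889 on the plus strand for Fos, chr4:95052223-95052472 on the minus strand for Jun, chr1:191183334-191183583 on the minus strand for Atf3 and chr7:19310046-19310295 on the minus strand for Fosb.
Fos: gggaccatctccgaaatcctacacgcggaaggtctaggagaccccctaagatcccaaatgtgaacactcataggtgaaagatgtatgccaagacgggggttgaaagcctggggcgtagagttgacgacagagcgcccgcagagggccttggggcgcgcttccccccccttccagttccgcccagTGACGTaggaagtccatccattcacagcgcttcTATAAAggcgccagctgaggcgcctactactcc
Jun: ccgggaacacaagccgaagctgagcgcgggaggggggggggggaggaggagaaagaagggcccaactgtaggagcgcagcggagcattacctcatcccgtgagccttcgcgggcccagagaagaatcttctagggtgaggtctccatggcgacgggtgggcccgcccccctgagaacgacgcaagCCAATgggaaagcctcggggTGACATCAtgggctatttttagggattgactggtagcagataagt
Atf3: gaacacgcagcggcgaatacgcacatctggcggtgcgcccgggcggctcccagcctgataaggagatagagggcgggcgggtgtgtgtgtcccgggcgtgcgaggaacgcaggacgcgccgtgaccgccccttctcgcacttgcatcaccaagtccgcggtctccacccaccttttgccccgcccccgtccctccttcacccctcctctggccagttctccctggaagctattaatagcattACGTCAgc
Fosb: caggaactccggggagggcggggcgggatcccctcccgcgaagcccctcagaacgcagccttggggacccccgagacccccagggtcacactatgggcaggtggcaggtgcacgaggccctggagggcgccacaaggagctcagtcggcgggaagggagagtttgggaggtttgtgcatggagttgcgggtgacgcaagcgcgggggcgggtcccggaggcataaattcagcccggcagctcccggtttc
Fos held TGACGT, the core of the cyclic AMP response element that CREB and ATF proteins bind, at -66 to -61 from the start, and a TATA box (TATAAA) at -33 to -28. Jun held TGACATCA, a variant of the AP-1 site, at -45 to -38 and CCAAT at -65 to -61. In Atf3 the same core as in Fos stood on the other strand (ACGTCA) at -8 to -3, over the start of the main listed Atf3 transcript, which lies 7 bases before the RefSeq start. The Fosb window held none of the motifs searched. Among windows not shown, that of Junb, which did not pass 2-fold, held CCAAT at -36 to -32. That of Batf, which had no row, held TGACGT at -98 to -93, and those of Fosl2 and Jund held none. Both strands were searched, and the motifs do not overlap each other in these windows. Among 32851 RefSeq promoter windows of the same length, 6.47% held TGACGT, 2.93% TGACATCA, 12.4% TATAAA, 33.8% CCAAT, 1.47% the CArG box of serum response factor and 4.46% TGACTCA, the classical AP-1 site. Windows were given for 7 of the 8 listed members, all but Fosl1, and neither of the last pair of motifs was in any of them, which says only that these letters are not there. Bases more than 250 before the start were not searched, so that motifs further upstream, also in Fos, would be missed. For Fosl2 and Jund the RefSeq start lies away from that of the listed transcript, and their windows are not shown.

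Fosl2 was the member that was higher in the ABs of the osteoclast stages. Fosl2, which encodes Fra-2, a Fos protein that lacks the strong activation domain of Fos, lies at chr5:32135801-32157842 on the plus strand. It had 1589 reads in BMM-ABs, 2757 reads in pOC-ABs and 8427 reads in mOC-ABs, or 175 RPM, 373 RPM and 1094 RPM. Each library was above the one before it, with counting intervals that did not overlap. The level was 2.14-fold higher in pOC-ABs than in BMM-ABs (log2 ratio 1.10, 95% exact interval 1.01 to 1.19), 2.93-fold higher in mOC-ABs than in pOC-ABs (1.55, 1.49 to 1.61) and 6.26-fold higher in mOC-ABs than in BMM-ABs (2.65, 2.57 to 2.73). With 1 library per group there is no test, and all intervals cover counting error only, not the spread between samples. The reads carry no molecular identifiers, so that repeat reads of 1 molecule cannot be told apart. Among the 12713 genes, Fosl2 ranked 109th from the highest ratio of mOC-ABs to BMM-ABs, 205th for mOC-ABs to pOC-ABs and 516th for pOC-ABs to BMM-ABs. The difference between pOC-ABs and BMM-ABs passed 2-fold with the mRNA total as the scale and missed it, at a log2 ratio of 0.90, when the lncRNA reads were added to the total.

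Fos, the founding member and an immediate early gene, lies at chr12:85473890-85477273 on the plus strand. It had 1118 reads in BMM-ABs, 562 reads in pOC-ABs and 363 reads in mOC-ABs, or 123 RPM, 76.1 RPM and 47.1 RPM. The order of the libraries was thus the opposite of that of Fosl2. The log2 ratio was -0.69 (-0.84 to -0.54) for pOC-ABs to BMM-ABs, -0.69 (-0.89 to -0.50) for mOC-ABs to pOC-ABs and -1.38 (-1.56 to -1.21) for mOC-ABs to BMM-ABs, so that only the last passed 2-fold, with a level 2.61-fold lower in mOC-ABs.

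Fosb, which is induced like Fos and also makes a truncated form, lies at chr7:19302696-19310051 on the minus strand. It had 225 reads in BMM-ABs, 35 reads in pOC-ABs and 71 reads in mOC-ABs, or 24.7 RPM, 4.74 RPM and 9.21 RPM. pOC-ABs thus held the lowest level, with a log2 ratio to BMM-ABs of -2.38 (-2.94 to -1.87), the 90th lowest of all genes. mOC-ABs lay between the others, at -1.42 (-1.83 to -1.03) against BMM-ABs and 0.96 (0.36 to 1.59) against pOC-ABs. The last value was just under 2-fold and passed it under 3 of the 10 alternatives, at 1.01 with median-of-ratios size factors, 1.06 with the total of both tables and 1.20 with FPKM. It was smaller under others, at 0.83 with a pseudocount of 1 RPM and 0.60 on coding transcripts alone. Coding transcripts held 26 reads in pOC-ABs and 41 reads in mOC-ABs. On them the log2 ratio to BMM-ABs was -1.89 for pOC-ABs and -1.30 for mOC-ABs, both past 2-fold.

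Fosl1, which encodes Fra-1, lies at chr19:5447547-5455946 on the plus strand. It had 88 reads in BMM-ABs, 122 reads in pOC-ABs and 68 reads in mOC-ABs, or 9.67 RPM, 16.5 RPM and 8.82 RPM. It was highest in pOC-ABs, by a log2 ratio of 0.77 (0.36 to 1.18) over BMM-ABs, and the log2 ratio of mOC-ABs to pOC-ABs was -0.90 (-1.35 to -0.46). Neither difference passed 2-fold, and mOC-ABs and BMM-ABs were not separable at this depth (-0.13, -0.61 to 0.34).

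**Figure D1:**
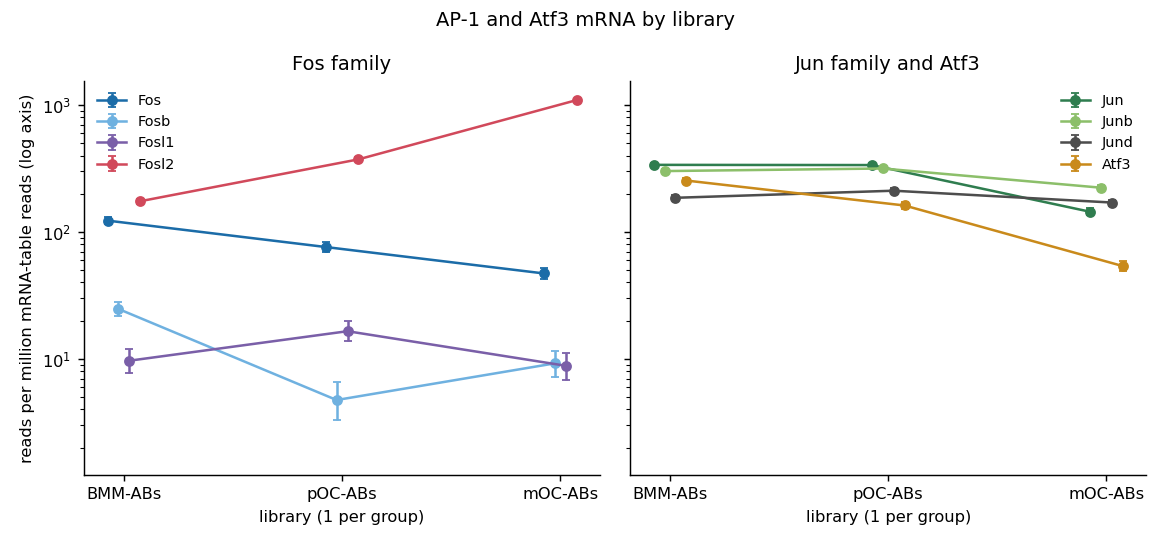
RPM (log axis) of each listed member in the 3 libraries, with bars for the exact 95% Poisson intervals, which cover counting error only. Fosl2 is higher in each later stage and reaches 1094, while Fos and Atf3 are lower in each later stage and Fosb is lowest in pOC-ABs.

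In the Jun family, Jun was lower in mOC-ABs and similar in the other libraries. Jun, the main partner of Fos proteins and a target of the JNK kinases, lies at chr4:95049034-95052222 on the minus strand. It had 3074 reads in BMM-ABs, 2486 reads in pOC-ABs and 1112 reads in mOC-ABs, or 338 RPM, 337 RPM and 144 RPM. BMM-ABs and pOC-ABs were level, and mOC-ABs stood apart. The log2 ratio was -1.23 (-1.33 to -1.13) for mOC-ABs to BMM-ABs and -1.22 (-1.32 to -1.12) for mOC-ABs to pOC-ABs.

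Junb, which can restrain Jun on some promoters, lies at chr8:84974484-84978718 on the minus strand. It had 2746, 2336 and 1720 reads, or 302 RPM, 316 RPM and 223 RPM. The level in mOC-ABs was below the others, with a log2 ratio of -0.43 to BMM-ABs and -0.50 to pOC-ABs, and no difference passed 2-fold. Jund, the Jun protein that resting cells also express, lies at chr8:70698949-70700616 on the plus strand. It had 1691, 1561 and 1314 reads, or 186 RPM, 211 RPM and 171 RPM in the same order. Its log2 ratios ran from -0.31 for mOC-ABs to pOC-ABs to 0.19 for pOC-ABs to BMM-ABs, the narrowest range of the 8 members. In pOC-ABs against BMM-ABs the small differences changed sign with the scale: Jun was at -0.01 and, scaled to the nuclear protein-coding genes, at 0.08, and Junb and Jund were at -0.13 and -0.01 once the lncRNA reads were added to the total.

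Atf3, a stress-induced bZIP factor that is a target of ATF4 and can pair with Jun proteins, lies at chr1:191170296-191218039 on the minus strand. It had 2312 reads in BMM-ABs, 1194 reads in pOC-ABs and 415 reads in mOC-ABs, or 254 RPM, 162 RPM and 53.9 RPM. Each library was below the one before it, as for Fos. The log2 ratio was -0.65 (-0.75 to -0.55) for pOC-ABs to BMM-ABs, -1.59 (-1.75 to -1.42) for mOC-ABs to pOC-ABs and -2.24 (-2.39 to -2.09) for mOC-ABs to BMM-ABs. Atf3 was thus 4.72-fold lower in mOC-ABs than in BMM-ABs, the 258th lowest ratio of all genes, and 3.0-fold lower than in pOC-ABs.

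In pOC-ABs against BMM-ABs, 1 of 8 members (Fosl2) was more than 2-fold higher, beside 4.87% of all genes with 20 reads, and 1 (Fosb) more than 2-fold lower, beside 6.06%. In mOC-ABs against BMM-ABs, 1 (Fosl2) was higher, beside 4.15%, and 4 (Fos, Fosb, Jun and Atf3) were lower, beside 9.01%. In mOC-ABs against pOC-ABs, 1 (Fosl2) was higher, beside 3.5%, and 2 (Jun and Atf3) were lower, beside 6.86%. Each of these calls had a counting interval wholly past 2-fold. The median log2 ratio of the 8 members was 0.03 in pOC-ABs against BMM-ABs, -0.83 in mOC-ABs against BMM-ABs and -0.60 in mOC-ABs against pOC-ABs, where the medians of all genes were -0.02, -0.05 and -0.05. The 3 comparisons share their libraries and are not independent of each other.

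**Figure D2:**
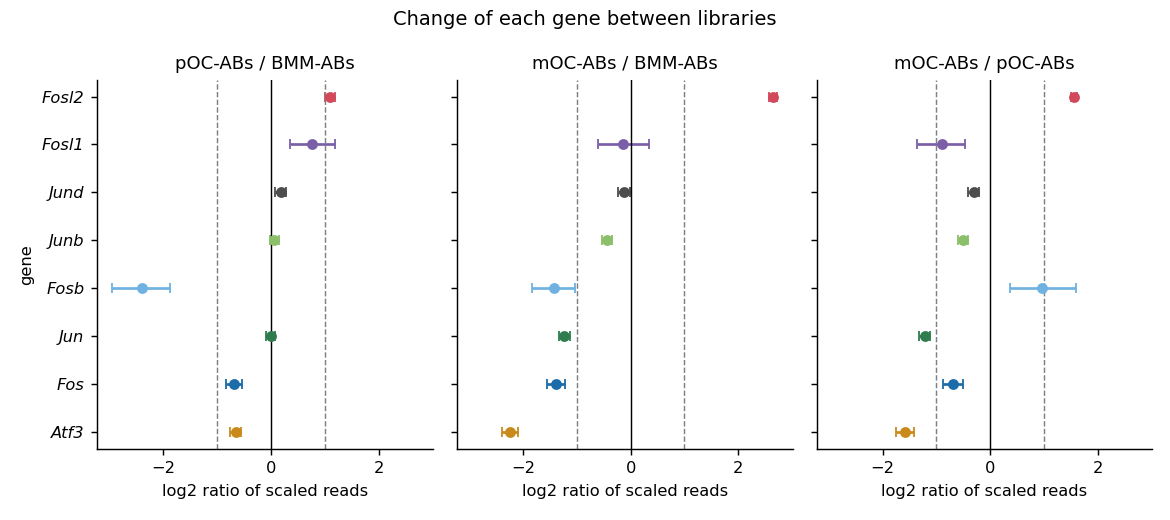
Log2 ratio of reads scaled to the mRNA total for each listed member in the 3 comparisons, with bars for the exact 95% binomial intervals (counting error only) and dashed lines at 2-fold. Fosl2 lies right of the 2-fold line in each comparison, and Jun, Fos, Fosb and Atf3 lie left of it in mOC-ABs against BMM-ABs.

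**Figure D3:**
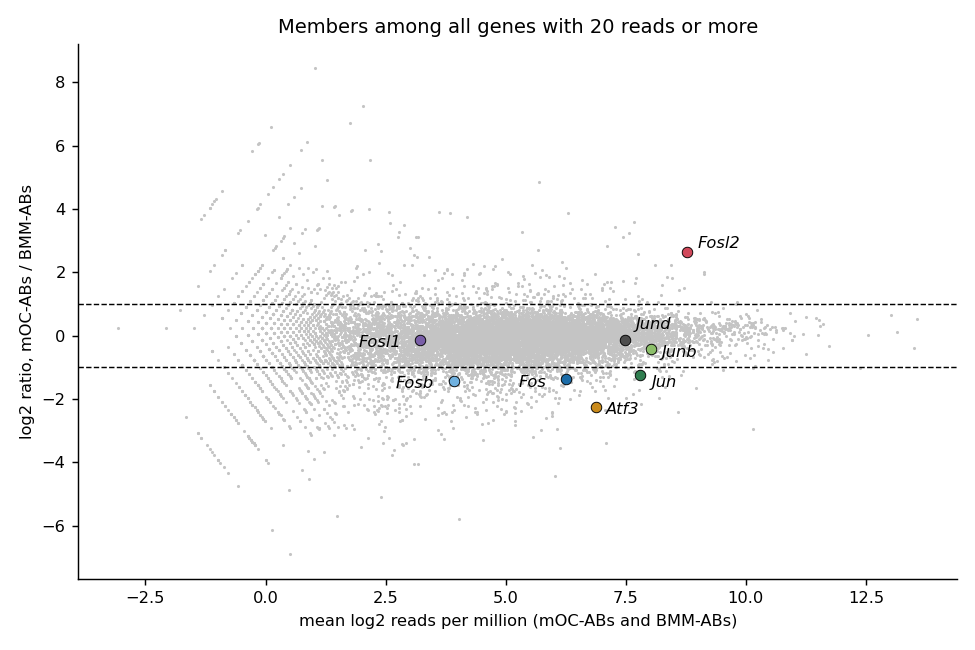
Log2 ratio of mOC-ABs to BMM-ABs against mean log2 RPM of these libraries for 12632 genes (grey; 81 genes with 0 reads in either library are left out), with the members in colour and dashed lines at 2-fold. Fosl2 (2.65) and Atf3 (-2.24) lie outside the bulk of genes of similar level, and Jund and Fosl1 lie within it.

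The mix of Fos family mRNAs differed between the libraries. On the FPKM scale, which corrects for the long Fosl2 transcript, Fosl2 made up 25.2%, 52.5% and 81.6% of the family's sum, and Fos 62.5%, 37.8% and 14.5%. The leading Fos family mRNA was thus Fos in BMM-ABs and Fosl2 in the other libraries. The FPKM ratio of Fosl2 to Fos was 0.402, 1.39 and 5.64. These sums include transcripts annotated as non-coding. On coding transcripts alone, a choice made after seeing the data, the ratio was 0.505, 1.73 and 9.37, and the shares were 29.6%, 56.6% and 87.0% for Fosl2 and 58.5%, 32.7% and 9.29% for Fos. By reads, without the length correction, the ratio was 1.42 (1.32 to 1.54), 4.91 (4.48 to 5.38) and 23.2 (20.9 to 25.9), and Fosl2 held 52.6% (Wilson interval 50.8% to 54.4%), 79.3% (77.9% to 80.6%) and 94.4% (93.9% to 94.8%) of the family's reads. These ratios within a library do not depend on its total. The sum of Fos family FPKM was 111, 112 and 208.

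The mix of Jun family mRNAs differed less. Jun made up 27.5%, 25.9% and 16.7% of the FPKM sum, Junb 43.6%, 43.1% and 45.7%, and Jund 28.9%, 31.1% and 37.6%. Junb led in each library. The sum of Jun family FPKM was 386, 408 and 272, so that Jun family mRNA exceeded Fos family mRNA in every library, by the least in mOC-ABs.

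**Figure D4:**
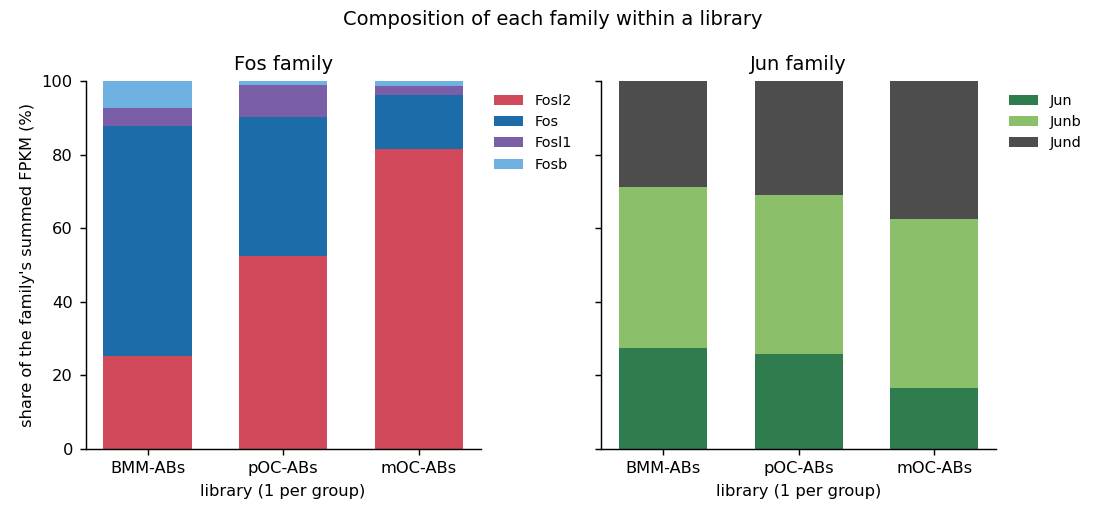
Share of the summed FPKM of the Fos family (left) and of the Jun family (right) held by each gene in each library, over all listed transcripts. Fosl2 grows from 25.2% of the Fos family in BMM-ABs to 81.6% in mOC-ABs, and the shares of the Jun family change less.

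Ordered by FPKM, Junb was the highest member in BMM-ABs (168) and in pOC-ABs (176), and Fosl2 in mOC-ABs (170). In BMM-ABs Atf3 (130), Jund (111), Jun (106), Fos (69.7), Fosl2 (28.0), Fosb (8.03) and Fosl1 (5.67) followed. Only the intervals of Jund and Jun overlapped there. In pOC-ABs the order below Junb was Jund (127), Jun (106), Atf3 (81.5), Fosl2 (58.9), Fos (42.4), Fosl1 (9.67) and Fosb (1.27), with no neighbours overlapping. In mOC-ABs it was Junb (124), Jund (102), Jun (45.3), Fos (30.1), Atf3 (27.2), Fosl1 (5.17) and Fosb (2.90) below Fosl2, and Fos and Atf3 overlapped. Fosl2 thus moved up the order with each stage. The order of neighbours rested in part on non-coding transcripts. On coding transcripts alone Fosb in BMM-ABs was at 4.82, with an interval that overlapped that of Fosl1 (5.67), and Fos in mOC-ABs was at 17.7, below Atf3 (27.2) with no overlap. The other neighbours kept their order.

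Most members were carried by 1 transcript. Fosl1, Jun and Jund had 1 listed transcript each, and the main transcripts of Fosl2, Junb and Atf3 held 98.7%, 99.8% and 99.1% of their reads. The main Fosl2 transcript, ENSMUST00000031017, alone had 1547, 2698 and 8366 reads, so that its order followed that of the gene. A second coding Atf3 transcript, ENSMUST00000195117, which starts at an upstream exon, had 0, 0 and 26 reads. In mOC-ABs it held 6.27% (4.31% to 9.02%) of Atf3 reads, and the 0 reads allow up to 3 reads each in the other libraries.

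Fos and Fosb were split over several transcripts. Of the Fos reads, the coding ENSMUST00000021674 held 987, 503 and 288, and the non-coding ENSMUST00000136122 held 128, 51 and 71. The share of the latter was 11.4% (9.71% to 13.4%), 9.07% (6.97% to 11.7%) and 19.6% (15.8% to 23.9%), highest where Fos was lowest. On the coding transcript alone, Fos had a log2 ratio of -1.54 for mOC-ABs to BMM-ABs. Of the Fosb reads, the coding ENSMUST00000003640 held 100, 26 and 36, and ENSMUST00000208230, annotated as a retained intron, held 106, 9 and 30. The retained intron share was 47.1% (40.7% to 53.6%), 25.7% (14.2% to 42.1%) and 42.3% (31.5% to 53.8%). Over 5724 genes with a listed retained intron transcript and 100 reads, the median share was 6.40%, 5.27% and 4.28%, and 354, 793 and 316 genes stood at or above Fosb. Reads that fit several transcripts of a gene were assigned by the authors' counting, and strand was not stated to be used. Annotated genes on the other strand or beside them overlap Fosl1, Jun, Junb, Jund and Atf3. The longest run of bases shared by the main mRNAs of any pair of members was 20 bases, between Jun and Jund.

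The genes whose pattern over the 3 libraries was nearest to that of the 3 most variable members were sought among 9881 protein-coding genes with 100 reads, by the distance between centred log2 RPM. Nearest to Fosl2 were Dixdc1 (15, 23 and 82 reads), Faah (19, 27 and 102) and Fam102a (806, 1085 and 4062), at distances of 0.166, 0.243 and 0.274. Nearest to Fosb were Gcnt1 (310, 45 and 80 reads), Fgf11 (1108, 170 and 274) and Gm9008 (63, 12 and 26), at 0.208, 0.279 and 0.285. Nearest to Atf3 were Rcsd1 (551, 288 and 101 reads), Pirb (138, 72 and 24) and Inka1 (103, 57 and 19), at 0.0215, 0.0445 and 0.0710. Within a distance of 0.25 lay 27 genes around Atf3, 2 around Fosl2 and 1 around Fosb, so that patterns like that of Atf3 were the more common. With 3 libraries such likeness is a description only.

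The other AP-1, ATF, CREB and related bZIP genes were mostly steady in pOC-ABs and partly lower in mOC-ABs. Of 28 named, 25 were measured with 20 reads. More than 2-fold lower were 1 in pOC-ABs against BMM-ABs, 6 in mOC-ABs against BMM-ABs and 6 in mOC-ABs against pOC-ABs, and higher were 0, 0 and 1. Of all genes 6.06%, 9.01% and 6.86% were lower in these comparisons, and 4.87%, 4.15% and 3.5% higher. The median log2 ratio in mOC-ABs against BMM-ABs was -0.70, where that of all genes was -0.05. Creb5 had 52, 39 and 6 reads, at -2.88 on the log2 scale for mOC-ABs to BMM-ABs, and Batf2, a relative of Batf, 26, 16 and 2 reads (-3.46, -6.58 to -1.46). With its 2 reads in mOC-ABs set at 3, Batf2 was 7.34-fold lower there than in BMM-ABs. Atf5 had 704, 982 and 268 reads, at -1.93 for mOC-ABs to pOC-ABs, and Atf7 had 1182, 393 and 951 reads, lowest in pOC-ABs like Fosb. Jdp2, an AP-1 repressor that osteoclasts need, had 647, 606 and 924 reads, at 0.75 for mOC-ABs to BMM-ABs, which did not pass 2-fold.

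The kinases and factors that feed into AP-1, from RANK signalling through TRAF6 to the MAP kinases, were near level. All 27 measured of 30 lay within 2-fold in each comparison, although 4 passed it in pOC-ABs against BMM-ABs when coding transcripts alone were counted, with medians of 0.01, 0.04 and -0.07 in pOC-ABs against BMM-ABs, mOC-ABs against BMM-ABs and mOC-ABs against pOC-ABs.

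Other immediate early and early response genes were in part lower in mOC-ABs. Of 39 measured of 40, 14 were more than 2-fold lower in mOC-ABs against BMM-ABs, beside the 9.01% of all genes, and 1 was higher, beside 4.15%. The median there was -0.67. In mOC-ABs against pOC-ABs 9 were lower (6.86% of all genes) and 2 higher (3.5%), and in pOC-ABs against BMM-ABs 1 was lower (6.06%) and 1 higher (4.87%). Egr1, the early response zinc finger factor, had 1853, 1581 and 584 reads, at -1.43 for mOC-ABs to BMM-ABs. Socs3, a feedback inhibitor of cytokine signalling, had 499, 221 and 99 reads (-2.09), Plk2 954, 583 and 227 (-1.83), Klf2 813, 474 and 203 (-1.76) and Nr4a3 22, 9 and 3 (-2.63, -5.02 to -0.90). Sgk1 had 58, 72 and 26 reads, -1.53 for mOC-ABs to pOC-ABs. Egr2 had 57, 109 and 133 reads, and was the 1 gene of the list more than 2-fold higher in both osteoclast stages than in BMM-ABs (1.24 and 1.46). Egr3 had 95, 34 and 76 reads, lowest in pOC-ABs, and Csrnp1 had 232, 98 and 358 reads, 1.81 for mOC-ABs to pOC-ABs.

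Osteoclast genes on which AP-1 and NFATc1 are known to act were mostly higher in mOC-ABs. Of 15 measured of 20, 4 were more than 2-fold higher in pOC-ABs against BMM-ABs, 11 in mOC-ABs against BMM-ABs and 10 in mOC-ABs against pOC-ABs, beside 4.87%, 4.15% and 3.5% of all genes, with none lower and medians of 0.68, 2.23 and 1.55. Nfatc1, the master factor of osteoclast differentiation, had 2566, 2772 and 8463 reads, close to the numbers for Fosl2 in the last pair of libraries. Its log2 ratio was 1.96 for mOC-ABs to BMM-ABs and 1.55 for mOC-ABs to pOC-ABs, and 0.41 for pOC-ABs to BMM-ABs, where that of Fosl2 was 1.10. Acp5, the TRAP enzyme, had 88, 292 and 2157 reads (4.86 for mOC-ABs to BMM-ABs), Atp6v0d2, a proton pump subunit, 187, 873 and 2338 (3.88), Mmp9 8, 17 and 107 (3.98), and Ctsk, the collagen-degrading cathepsin K, 180, 171 and 1001 (2.72). Oscar, an osteoclast receptor, had 0, 7 and 49 reads, at least 19.3-fold higher in mOC-ABs than the 3 reads that a count of 0 in BMM-ABs allows. With Oscar set at this bound the medians were the same, since it stayed above them.

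Targets of the integrated stress response, in which ATF4 acts upstream of Atf3, were in part lower in mOC-ABs, and none was past 2-fold in the other direction. Of 19 measured of 20, none was past 2-fold in pOC-ABs against BMM-ABs, 7 were lower in mOC-ABs against BMM-ABs and 8 in mOC-ABs against pOC-ABs, beside 9.01% and 6.86% of all genes. The median was -0.93 in each of the last pair of comparisons. Atf4 itself had 4145, 3398 and 1894 reads, at -0.89 for mOC-ABs to BMM-ABs. Ddit3, the stress factor CHOP, had 489, 348 and 130 reads (-1.67), Trib3 673, 433 and 103 (-2.47), Slc7a5, an amino acid carrier, 1298, 635 and 253 (-2.12), and Chac1 550, 342 and 142 (-1.71). Asns, asparagine synthetase, had 1348, 2068 and 667 reads and Mthfd2, a mitochondrial folate enzyme, 2074, 1554 and 581, with log2 ratios for mOC-ABs to pOC-ABs of -1.69 and -1.48.

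Genes grouped here under degradation or inhibition of AP-1 moved unevenly. The grouping is broad, and an action of each gene on AP-1, that of Irf8 included, was not tested. All 15 were measured, with a median of -0.01 in mOC-ABs against BMM-ABs, where 4 were more than 2-fold lower, beside 9.01% of all genes, and none higher. Among these were Irf8 (1330, 431 and 207 reads, -2.44), Tsc22d3 (406, 300 and 141, -1.29), which encodes a glucocorticoid-induced inhibitor of AP-1, and the glucocorticoid receptor Nr3c1 (666, 472 and 250, -1.17). In pOC-ABs against BMM-ABs Irf8 was lower at -1.32, and in mOC-ABs against pOC-ABs 3 were lower (6.86% of all genes), among them Tsc22d3 and Irf8. Jdp2, Atf4, Ddit3 and Cebpg each belong to more than 1 list, and the osteoclast markers are also in the list of osteoclast genes.

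**Figure D5:**
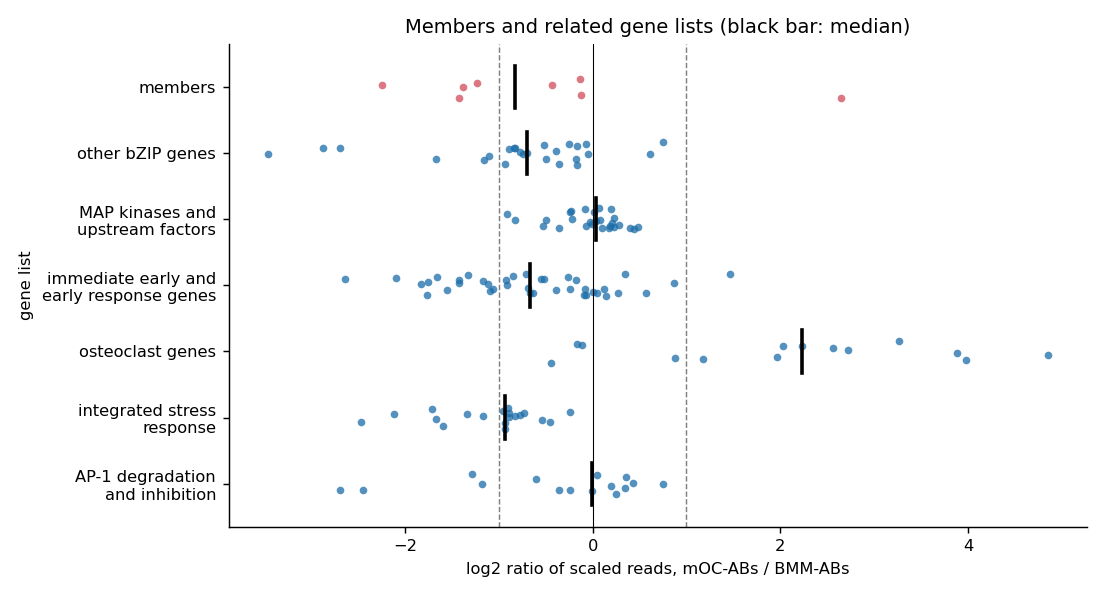
Log2 ratio of mOC-ABs to BMM-ABs for the members (red) and for the genes with 20 reads in each of the 6 lists (blue), with a black bar at each median and dashed lines at 2-fold. Oscar, with 0 reads in BMM-ABs, is counted in the median of the osteoclast genes (2.23) but has no point, and the medians of the members (-0.83) and of the stress response genes (-0.93) lie left of 0.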

How the data were processed

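RNA of 3 AB libraries was sequenced by the authors as paired-end reads after poly-T bead purification. The submitters' processing notes name FastQC, HISAT2, StringTie and GRCm38, and the tool and strand setting that gave the read counts are not given in the sources used here. The authors deposited read counts and FPKM per transcript, and the FPKM values divide by the total of the mRNA table. Their lncRNA FPKM and circRNA SRPBM columns were not used, and of the lncRNA and circRNA tables only reads at the member genes and the lncRNA total were read. The columns named 0h, 24h and 72h were taken as BMM-ABs, pOC-ABs and mOC-ABs from the RANKL times.

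GENCODE M21 gave the gene of each transcript (56440 of 56651 matched, and the other 211 held 0.110% of the reads). Counts were summed per gene and divided by the mRNA-table total of the library (7387317 to 9100082 reads). Ratios have exact Clopper-Pearson intervals for the reads of both libraries, levels exact Poisson intervals and shares Wilson intervals, at 95% and for counting error only. A gene was called past the fold at more than 2-fold, with at least 20 reads over the 3 libraries, and a count of 0 allows 3 reads. With 1 library per group no test or p-value could be had. The calculation was tested on simulated data.

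The members and the gene lists were chosen with earlier results of these data known. Named are all members, their transcripts with 10% of reads (the second Atf3 transcript was named after its values were seen), at most 4 genes per list, direction and comparison by size, the genes Egr1, Atf4, Ddit3, Jdp2, Nfatc1, Ctsk, Acp5 and Mmp9, and the 3 genes nearest to each of the 3 most variable members. Some genes that this rule names are not reported here. Other scalings, FPKM, coding transcripts alone, a pseudocount of 1 RPM, other read limits and added lncRNA reads made up 10 alternatives. Python 3.11.15, pandas 2.3.3, numpy 2.4.6, scipy 1.17.1 and matplotlib 3.10.9 were used. Promoter sequences are RefSeq's, for GRCm38.p6, and protein sequences were not used here.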

Additional observations from a re-analysis of the deposited data

Results flagged for a closer look

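The lncRNA table, which the comparisons above do not use, lists reads at 3 members above the 3 reads that a count of 0 allows, in transcripts named by the NONCODE catalogue. At Fosl2, NONMMUT051818.2 had 67, 78 and 121 reads from BMM-ABs through pOC-ABs to mOC-ABs, so that its highest count of 121 was in the library where Fosl2 was highest. NONMMUT051817.2 at Fosl2 had 6, 4 and 3 reads, with a highest count of 6. Both lie within the span of Fosl2. At Fos, NONMMUT141996.1 had 12, 25 and 7 reads, with a highest count of 25 in pOC-ABs. It lies at chr12:85473028-85473917, mostly before Fos, which starts at 85473890. At Jun, NONMMUT115308.1 had 10, 26 and 13 reads, with a highest count of 26 in pOC-ABs. It lies at chr4:95051535-95167319, mostly outside Jun, whose span reaches only to 95052222. Their reads and those of the members cannot be told apart where they overlap, since the use of strand was not stated. Adding them to the members changed no call.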

How the results depend on the processing

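All calls of members were kept under the 10 alternatives, with 1 exception: with the lncRNA reads added to the total, members past 2-fold in pOC-ABs against BMM-ABs numbered 1 (Fosb) in place of 2. This scale moved the median of all genes to -0.22 in pOC-ABs against BMM-ABs and -0.15 in mOC-ABs against BMM-ABs, and put Fosl2 at 0.90 in the former comparison. Fosb was added as higher in mOC-ABs against pOC-ABs under 3 alternatives. No call of a member changed direction. Of 192 log2 ratios of members under alternatives, 14 moved beyond their counting interval. Among the lists, 15 of 162 counts moved by over 1.5 times. In pOC-ABs against BMM-ABs the bZIP count was 2 with the upper quartile and 3 with either the total of both tables or that of nuclear protein-coding genes. The kinase count was 1 with the upper quartile or nuclear protein-coding genes and 4 with coding transcripts alone. The early response count was 7 with the total of both tables, 1 with FPKM and 4 with coding transcripts alone. The stress response count was 1 with the total of both tables, and the osteoclast gene count was 2 with the pseudocount. In mOC-ABs against BMM-ABs the kinase count was 1 with the total of both tables or FPKM and 2 with coding transcripts alone, and the stress response count was 11 with the total of both tables. The cause was not tested. Of all genes, 2.84% were higher and 4.29% lower in pOC-ABs against BMM-ABs with at least 100 reads, against 8.80% and 10.4% with no limit. Shares of the main transcript moved beyond their interval in 11 of 24 cases when FPKM replaced reads, for Fos to between 58.8% and 76.1%. Counting coding transcripts alone for FPKM levels and leaving Lyz2 out of the macrophage markers were chosen after seeing the data. No paired analysis was possible because each group had 1 library. A single library per group and the low counts of Fosl1 and Fosb limit what can be told from these values.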
